A study of Mus musculus with 6 samples.

Results

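Amino acid catabolism in the liver was followed through 43 enzymes, listed by name for the breakdown of aromatic, sulfur, branched-chain, glucogenic and other amino acids and for the transaminases, among the 45777 genes in the table of the series. All 43 were found by symbol, and all 43 were among the 18636 genes that passed the filter on low counts and were tested, with at least 333 read counts in every mouse. The livers came from male C57BL/6 mice that were 8 weeks old and had been fasted for 24 h, with 1 sequenced library per mouse. The 3 control mice (WT) carried *Pak4* flox/flox and no Cre. The 3 LKO mice carried Alb-Cre; *Pak4* flox/flox, in which Cre made from the albumin promoter deletes the floxed part of the kinase gene *Pak4* in hepatocytes, so that other liver cells keep the gene. Both groups carried the floxed alleles and both were fasted, so no fed mouse and no mouse with Cre alone enters the comparison. The question that the comparison addresses is which transcripts differ in the fasted liver when hepatocytes lack PAK4.

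During a fast, hepatocytes break down amino acids, release their nitrogen as urea and pass their carbon to glucose and ketone bodies. Many of these pathways start with a transaminase or an oxygenase in the cytosol and end in mitochondria, and many of their genes respond to glucagon and glucocorticoids. The sulfur amino acids take a separate route, in which methionine is turned into the methyl donor S-adenosylmethionine, the homocysteine left over is either methylated again or passed to cysteine, and cysteine is oxidised to taurine or sulfate. The liver is the main site of tryptophan breakdown, whose kynurenine branch also supplies NAD.

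Total counts were 45934632 to 59576437 per library. *Pak4*, the targeted gene, had 268, 210 and 271 read counts in the WT livers, against 85, 52 and 149 in those of LKO mice (log2 fold change −0.71, SE 0.308, adjusted p = 0.10 from edgeR). All 3 LKO read counts were below all 3 WT read counts, but on the TMM scale LKO mouse 3, at 3.22 CPM, was just above WT mouse 2, at 3.21 CPM. The difference passed without LKO mouse 3 (log2 fold change −1.08, adjusted p = 0.0152) and with total counts (−1.54, adjusted p = 0.0056, edgeR). The libraries differed in composition, with the edgeR TMM factors at 1.28 to 1.43 in WT and 0.639 to 0.816 in LKO mice. By TPM, 7SL RNA held 21.9 to 25.4% for WT livers and 36.7 to 47.4% for LKO livers. By read counts, to which TMM is applied, 7SL RNA took less, with 4.55 to 5.24% for WT livers, against 11.2 to 15.8% for LKO livers. How much of the difference in TMM factors comes from 7SL RNA was not tested. TPM, a level per gene length, serves here mainly to compare genes within a mouse. Where TPM levels or shares of all TPM are given for both genotypes further on, the difference in 7SL RNA enters them. Because composition differed, genotypes are mainly compared by TMM-scaled CPM, which are read counts relative to a library size itself corrected for composition. Lists of marker genes were checked on the same scale. Of 7 hepatocyte markers, 4 were higher and 1, *Ttr*, was lower in LKO mice, with a summed level of 41073 to 44560.2 CPM in the WT mice, against 108170.2 to 130623 CPM in LKO mice. Of the markers of other liver cells, 3 of 7 for Kupffer cells, 4 of 6 for sinusoidal endothelial cells and 4 of 6 for stellate cells were higher in LKO mice, with summed levels of 276 to 417, 244 to 292 and 221 to 262 CPM in the WT mice, against 466 to 919, 407 to 467 and 580 to 851 CPM in LKO mice. Of the markers tested, 1 of 4 for cholangiocytes (*Spp1*) and 1 of 6 for lymphocytes (*Nkg7*) were lower. Among all genes tested, 19.6% were higher and 20.5% lower. The Kupffer, endothelial and stellate cell calls depended in part on scaling. With total counts, *Vsig4*, *Clec4g*, *Lyve1*, *Dcn* and *Hhip* stayed higher. *Clec4f*, *Timd4*, *Ehd3*, *Oit3*, *Lrat* and *Colec11* did not pass, and *Adgre1*, *Stab2*, *Kdr* and *Reln* were lower (edgeR). On that scale 6.27% of all genes were higher and 51.4% lower. Among 6 pancreas markers 3 had no counts in any mouse, and *Krt7* and *Cftr* did not pass the filter. Their part in the results was not tested. In whole liver, fewer cells of a type and less RNA per cell cannot be told apart.

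Of the 43 enzymes, 20 rose and 3 fell in the LKO mice, by a Benjamini-Hochberg adjusted p under 0.05 from edgeR's quasi-likelihood test (14 and 16 when libraries were scaled by total counts, as described further on). This made 53.5% of the enzymes called, against 40.1% of all genes tested. In the single directions, 46.5% were higher, against 19.6% of all genes, and 6.98% were lower, against 20.5%. At least a 2-fold change among those called was seen for 17 enzymes upward, where 13.2% of all genes met this, and for 1 enzyme downward, where 11.7% did. Genotypes were fully separated, with no overlap of their values, for 26 of the 43, against 54.0% of all genes. Genes with a high mean level over the mice of both genotypes were called higher in LKO mice more often. Of the 1105 genes that averaged 100 CPM or more over all these mice, 45.2% were called higher and 17.6% lower. Of the 28 enzymes at that level, 17 were higher and 2 lower. LKO values help decide which genes reach this level, which favours higher calls. *Hibch*, *Got1*, *Sds* and *Hal* reached it although their WT means were below 100 CPM. *Cbs*, *Aldh4a1* and *Ivd* had WT means above 100 CPM but fell short over all mice. Whether genes with high WT levels rose more often was not tested. The median log2 fold change was 0.63 over the enzymes and −0.04 over all genes.

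**Figure D1:**
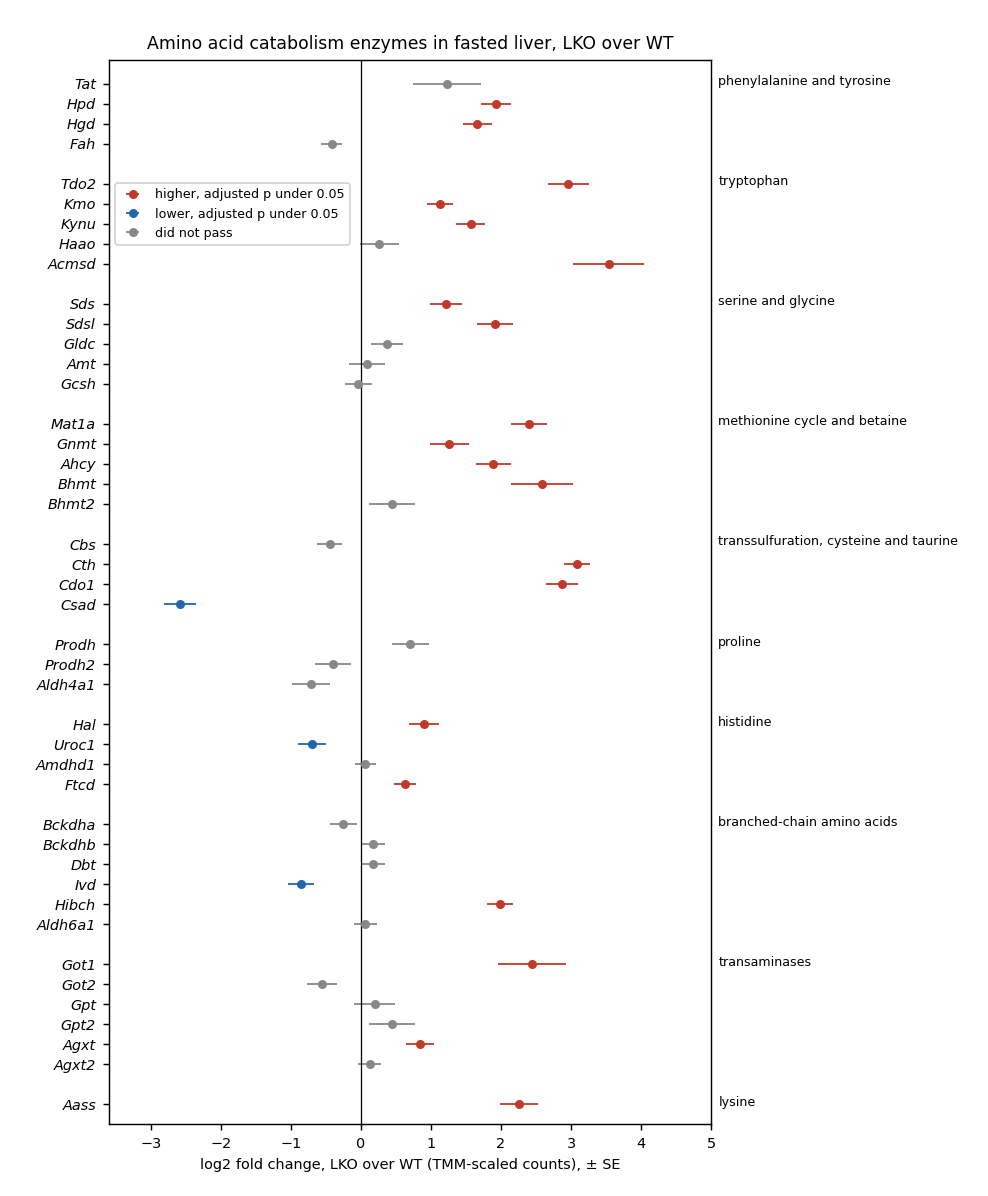
Log2 fold change of LKO over WT for each of the 43 enzymes (horizontal axis, with SE from edgeR), ordered by amino acid; colours give the call at an adjusted p under 0.05. The tryptophan, methionine and cysteine enzymes reach the largest values, from −2.58 for Csad to 3.54 for Acmsd, while the branched-chain enzymes other than Hibch and Ivd lie near 0.

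In the tryptophan pathway, 4 of 5 enzymes were higher in LKO mice and none was lower. *Tdo2*, on chromosome 3 from 81958412 to 81975728 in GRCm38.p6, encodes tryptophan dioxygenase, which opens the indole ring in the rate-limiting step. *Tdo2* was at 1296, 1428 and 1593 CPM in WT mice and at 8557, 12236 and 12698 CPM in LKO mice. All LKO values lay above all WT values, 7.76-fold higher on the means (log2 fold change 2.96, SE 0.292, adjusted p = 3.3e-04 from edgeR). *Acmsd*, on chromosome 1 from 127729413 to 127767564, encodes the decarboxylase that takes the late intermediate of the kynurenine branch away from NAD synthesis. *Acmsd* was at 11.5, 8.86 and 8.90 CPM in WT mice and at 42.1, 98.9 and 198 CPM in LKO mice, so that the lowest LKO mouse was above the highest WT mouse, although the LKO mice differed 4.70-fold among themselves (log2 fold change 3.54, SE 0.504, adjusted p = 0.0011 from edgeR). Without LKO mouse 3, its log2 fold change was 2.85 (adjusted p = 9.0e-04, edgeR), below the 3.07 of *Cth* in the same fit. The steps in between rose less. *Kynu*, for kynureninase, was at 112, 118 and 108 CPM in the WT mice, against 320.1, 259 and 421 CPM in LKO mice (log2 fold change 1.56, SE 0.203, adjusted p = 7.7e-04 from edgeR). *Kmo*, for kynurenine monooxygenase, was at 289, 265 and 295 CPM in the WT mice, against 505, 696 and 656 CPM in LKO mice (log2 fold change 1.13, SE 0.184, adjusted p = 0.0020 from edgeR). *Haao*, which encodes the dioxygenase that forms the substrate shared by ACMSD and the NAD branch, did not pass the test (log2 fold change 0.26, SE 0.282, adjusted p = 0.49 from edgeR), and its values, 209 CPM at the highest in WT and 133 CPM at the lowest in LKO mice, overlapped.

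The 250 bases upstream of the annotated start of *Tdo2*, the enzyme with the highest level of this pathway, are given from the RefSeq promoter table of GRCm38.p6, chr3:81975729-81975978 on the minus strand. Of the 43 enzymes, 35 had an entry in this table. Capitals mark matches, on either strand, to 4 sets of letters, namely TATAAA for a core promoter element, CCAAT for the element bound by NF-Y, TGACGTCA for the full cyclic AMP response element and TGATGCAA for an element bound by C/EBP and ATF factors. Of all 32851 windows of this length, 12.4%, 33.8%, 1.55% and 0.791% hold these. Of the 35 enzymes, which have 39 windows, 6, 20, 0 and 1 hold them in at least 1 window. The shares are per window and the counts per gene, so they cannot be compared directly.
Tdo2: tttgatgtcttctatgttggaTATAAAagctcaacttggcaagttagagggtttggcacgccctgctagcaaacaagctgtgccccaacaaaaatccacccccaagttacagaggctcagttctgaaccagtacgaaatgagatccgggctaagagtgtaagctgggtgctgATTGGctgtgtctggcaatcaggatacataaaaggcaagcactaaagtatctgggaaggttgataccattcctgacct
The *Tdo2* window holds 1 TATAAA match and 1 CCAAT match.

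In the methionine cycle, 4 of 5 enzymes were higher in LKO mice and none was lower. *Mat1a*, on chromosome 14 from 41105012 to 41124428, makes S-adenosylmethionine in adult liver. *Mat1a* was at 1862, 1692 and 1951 CPM in WT mice and at 8375, 10052 and 10544 CPM in LKO mice, a 5.26-fold difference on the means with no overlap (log2 fold change 2.40, SE 0.257, adjusted p = 4.1e-04 from edgeR). *Gnmt*, which uses up surplus S-adenosylmethionine by methylating glycine, was at 511, 362 and 574 CPM in the WT mice, against 1145, 1486 and 842 CPM in LKO mice (log2 fold change 1.26, SE 0.272, adjusted p = 0.0071 from edgeR). *Ahcy*, which splits S-adenosylhomocysteine into homocysteine and adenosine, was at 933, 589 and 810.4 CPM in the WT mice, against 2864, 3159 and 2622 CPM in LKO mice (log2 fold change 1.89, SE 0.245, adjusted p = 7.7e-04 from edgeR). The LKO values lay above the WT values for each of these genes. *Bhmt*, on chromosome 13 from 93616891 to 93637758, returns homocysteine to methionine with a methyl group from betaine. *Bhmt* was at 2692, 1423 and 2118 CPM in WT mice and at 17294, 13774 and 6347 CPM in LKO mice, 6.00-fold higher on the means with a 2.73-fold range among LKO mice (log2 fold change 2.59, SE 0.442, adjusted p = 0.0025 from edgeR). Its neighbour *Bhmt2*, on chromosome 13 from 93656097 to 93674302, encodes a related enzyme that takes its methyl group from S-methylmethionine. *Bhmt2* was at 96.1, 39.0 and 75.0 CPM in WT mice and at 123, 93.5 and 68.6 CPM in LKO mice, and these overlapped (log2 fold change 0.44, SE 0.331, adjusted p = 0.33 from edgeR). *Bhmt* and *Bhmt2* are close copies, so their counts are uncertain where reads could be split between them.

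Downstream of homocysteine the enzymes went in opposite directions. *Cbs*, which joins homocysteine to serine as the entry to transsulfuration, did not pass the test, with 114 ± 17.4 CPM in WT, against 83.4 ± 12.1 CPM in LKO mice (SD, n = 3; log2 fold change −0.45, SE 0.178, adjusted p = 0.077 from edgeR). *Cth*, on chromosome 3 from 157894248 to 157925081, splits cystathionine to release cysteine. *Cth* was at 190.4, 199 and 209.7 CPM in WT mice and at 1691, 1660.5 and 1749 CPM in LKO mice. It had the narrowest range of the 43 enzymes among LKO mice, 1.05-fold, and was 8.51-fold higher on the means (log2 fold change 3.09, SE 0.185, adjusted p = 1.2e-04 from edgeR). *Cdo1*, on chromosome 18 from 46713193 to 46728502, oxidises cysteine to cysteine sulfinate. *Cdo1* was at 298, 225 and 332 CPM in WT mice and at 1937, 2082 and 2216 CPM in LKO mice (log2 fold change 2.87, SE 0.227, adjusted p = 2.1e-04 from edgeR). *Csad*, on chromosome 15 from 102176997 to 102205052, decarboxylates cysteine sulfinate on the way to taurine. *Csad* was at 428, 319 and 515 CPM in WT mice and at 79.3, 57.3 and 74.1 CPM in LKO mice. Every LKO mouse was below every WT mouse, and the WT mean was 5.99 times the LKO mean (log2 fold change −2.58, SE 0.231, adjusted p = 2.7e-04 from edgeR). It was the only enzyme of the 43 that was called lower with at least a 2-fold change, and in the order of the 43 by mean TPM it stood at place 8 in WT and place 36 in LKO mice.

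**Figure D2:**
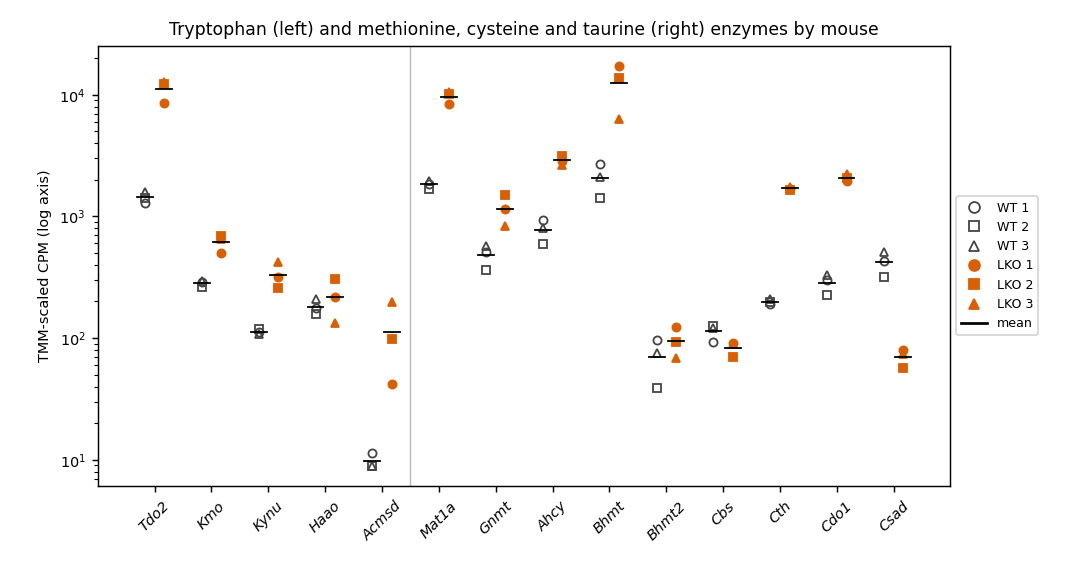
TMM-scaled CPM (log axis) of the 5 tryptophan enzymes, left, and the 9 enzymes of methionine, cysteine and taurine, right, in each WT mouse (open) and LKO mouse (filled), with the mean of each genotype as a bar. The filled points lie above the open ones for Tdo2, Acmsd, Mat1a, Bhmt, Cth and Cdo1, below them for Csad, and mix with them for Haao and Bhmt2.

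Because *Csad* had the largest fall of the 43 enzymes, its upstream window is shown as well, chr15:102205053-102205302 on the minus strand, for the upstream one of its annotated starts, with capitals as above.
Csad: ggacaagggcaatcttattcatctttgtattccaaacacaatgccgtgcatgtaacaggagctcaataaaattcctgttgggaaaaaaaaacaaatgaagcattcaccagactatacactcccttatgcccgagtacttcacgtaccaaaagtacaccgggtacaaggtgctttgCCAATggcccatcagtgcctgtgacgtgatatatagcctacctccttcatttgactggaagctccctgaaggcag
It holds 1 CCAAT match and none of the other sets of letters.

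For phenylalanine and tyrosine, 2 of 4 enzymes were higher. *Hpd*, which converts hydroxyphenylpyruvate to homogentisate, was at 543, 409 and 568 CPM in the WT mice, against 1748, 1961 and 2075 CPM in LKO mice (log2 fold change 1.93, SE 0.215, adjusted p = 4.6e-04 from edgeR). *Hgd*, which opens the ring of homogentisate, was at 223, 222 and 285 CPM in the WT mice, against 670.2, 695 and 941 CPM in LKO mice (log2 fold change 1.66, SE 0.210, adjusted p = 7.1e-04 from edgeR). Both genes were above the WT range in every LKO mouse. *Tat*, the tyrosine transaminase that opens the pathway and a classic target of glucocorticoids, was at 729, 373 and 1004 CPM in the WT mice, against 859.6, 1302 and 2767 CPM in LKO mice. The LKO mice spread over a 3.22-fold range and LKO mouse 1 lay inside the WT range, and the difference did not pass the quasi-likelihood test (log2 fold change 1.23, SE 0.484, adjusted p = 0.075 from edgeR), whereas edgeR's exactTest, which the methods of the study name, gave an adjusted p of 0.029. *Fah*, the last enzyme, which releases fumarate and acetoacetate, had a log2 fold change of −0.42 and did not pass (adjusted p = 0.057, edgeR).

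Of the serine and glycine enzymes, both serine dehydratases rose and the 3 genes listed for the glycine cleavage system did not pass. *Sds*, which turns serine into pyruvate, was at 45.3, 71.4 and 84.1 CPM in the WT mice, against 142, 151 and 173 CPM in LKO mice (log2 fold change 1.21, SE 0.231, adjusted p = 0.0040 from edgeR). Its neighbour on chromosome 5 *Sdsl*, a close homologue, was at 6.81, 5.09 and 6.62 CPM in the WT mice, against 15.7, 22.6 and 31.5 CPM in LKO mice (log2 fold change 1.91, SE 0.263, adjusted p = 9.9e-04 from edgeR). The LKO values were above the WT values for both, and counts of these homologues are likewise uncertain where reads could be split. The glycine cleavage genes *Gldc*, *Amt* and *Gcsh*, for its decarboxylase, its aminomethyltransferase and its lipoyl carrier, had log2 fold changes of 0.37, 0.09 and −0.04, with adjusted p-values of 0.22, 0.80 and 0.90 from edgeR. The remaining subunit of that system is the dihydrolipoamide dehydrogenase *Dld*, which belongs to several complexes and was counted among the related enzymes. It was at 95.1, 75.5 and 96.8 CPM in the WT mice, against 218, 232 and 229 CPM in LKO mice and was called higher (log2 fold change 1.35, SE 0.157, adjusted p = 5.3e-04 from edgeR).

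No proline enzyme passed. *Prodh*, for proline oxidation, was at 82.6, 49.8 and 89.9 CPM in the WT mice, against 130.5, 142 and 90.1 CPM in LKO mice without overlap (log2 fold change 0.71, SE 0.258, adjusted p = 0.058 from edgeR). *Prodh2*, for hydroxyproline, was at 93.1, 79.2 and 82.1 CPM in the WT mice, against 92.3, 55.8 and 44.9 CPM in LKO mice with overlap (log2 fold change −0.40, SE 0.253, adjusted p = 0.24 from edgeR). *Aldh4a1*, which both routes share, had a log2 fold change of −0.72 (adjusted p = 0.067, edgeR). With edgeR's exactTest, *Prodh* and *Aldh4a1* passed in opposite directions (adjusted p = 0.034 and 0.041).

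The histidine pathway moved by less than 2-fold. *Hal*, for histidine ammonia-lyase at its entry, rose (log2 fold change 0.90, SE 0.209, adjusted p = 0.010 from edgeR). *Uroc1*, for urocanase in the next step, fell (log2 fold change −0.69, SE 0.200, adjusted p = 0.025 from edgeR). *Amdhd1*, the imidazolonepropionase that follows and the neighbour of *Hal* on chromosome 10, had a log2 fold change of 0.06 and did not pass (adjusted p = 0.76, edgeR). *Ftcd*, which hands the formimino group to folate at the end, was at 150.4, 143 and 183 CPM in the WT mice, against 268, 240.4 and 228 CPM in LKO mice (log2 fold change 0.63, SE 0.163, adjusted p = 0.016 from edgeR). The genotypes did not overlap for *Uroc1* or *Ftcd*, but both calls were lost in some of the fits that left out a mouse. *Uroc1* passed in 3 of the 6 fits that left out a mouse and had an adjusted p of up to 0.089 in edgeR, without WT mouse 1, and *Ftcd* passed in 4 of 6, with an adjusted p of up to 0.067, also without WT mouse 1.

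For the branched-chain amino acids, 3 subunits of the dehydrogenase complex that commits them to breakdown, *Bckdha*, *Bckdhb* and *Dbt*, had log2 fold changes of −0.25, 0.17 and 0.17 and did not pass (adjusted p = 0.34, 0.43 and 0.46, edgeR). *Bckdha* was at 163, 106 and 159.5 CPM in the WT mice, against 123, 128 and 109 CPM in LKO mice. *Bckdhb* was at 46.0, 37.0 and 44.3 CPM in the WT mice, against 42.6, 56.8 and 44.4 CPM in LKO mice. The ranges of the genotypes overlapped for both subunits. The complex shares *Dld*, called higher above, with the glycine cleavage system. *Hibch*, the thioesterase of the valine pathway on chromosome 1 from 52845038 to 52920986, was at 53.5, 46.4 and 65.2 CPM in the WT mice, against 211, 244 and 198 CPM in LKO mice, 3.96-fold higher on the means (log2 fold change 1.98, SE 0.180, adjusted p = 2.9e-04 from edgeR). *Aldh6a1*, the last enzyme of the same pathway, was at 348, 309.7 and 367 CPM in the WT mice, against 358, 383 and 330.3 CPM in LKO mice, which overlapped (log2 fold change 0.06, SE 0.159, adjusted p = 0.78 from edgeR). *Ivd*, for the leucine step of isovaleryl-CoA oxidation, fell, with 114 ± 17.3 CPM in WT, against 62.7 ± 10.1 CPM in LKO mice (SD, n = 3) (log2 fold change −0.86, SE 0.181, adjusted p = 0.0065 from edgeR). *Aass*, the bifunctional enzyme that starts lysine breakdown, was at 263, 221 and 234 CPM in the WT mice, against 799, 1064 and 1574 CPM in LKO mice. It was above the WT range in every LKO mouse (log2 fold change 2.26, SE 0.271, adjusted p = 5.8e-04 from edgeR).

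Of the 6 transaminases, 2 were higher. *Got1*, on chromosome 19 from 43499752 to 43524605, is the cytosolic aspartate transaminase and takes part in the shuttle of aspartate between mitochondria and cytosol. *Got1* was at 91.9, 73.7 and 86.9 CPM in WT mice and at 248, 255 and 872 CPM in LKO mice. LKO mouse 3 was 3.52 times as high as the lowest LKO mouse (log2 fold change 2.44, SE 0.482, adjusted p = 0.0048 from edgeR), and without it the log2 fold change was 1.58 (adjusted p = 6.1e-04, edgeR). *Got2*, the mitochondrial form, was at 186, 108 and 166 CPM in the WT mice, against 118, 97.9 and 97.1 CPM in LKO mice with overlap (log2 fold change −0.55, SE 0.216, adjusted p = 0.072 from edgeR). *Agxt*, which removes glyoxylate with alanine as the amino donor, was at 42.6, 49.2 and 68.9 CPM in the WT mice, against 109, 93.3 and 84.9 CPM in LKO mice without overlap (log2 fold change 0.84, SE 0.204, adjusted p = 0.012 from edgeR). Its adjusted p was above the threshold without WT mouse 1 and without WT mouse 2, at 0.0504 and 0.0513 (edgeR). *Agxt2*, the mitochondrial enzyme, was at 105, 88.6 and 112 CPM in the WT mice, against 116, 123 and 93.8 CPM in LKO mice (log2 fold change 0.12, SE 0.165, adjusted p = 0.59 from edgeR). The alanine transaminases *Gpt* and *Gpt2*, cytosolic and mitochondrial, did not pass. *Gpt* was at 151, 85.0 and 129.9 CPM in the WT mice, against 171, 159.8 and 87.1 CPM in LKO mice (log2 fold change 0.19, SE 0.294, adjusted p = 0.63 from edgeR). *Gpt2* was at 386, 194 and 422 CPM in the WT mice, against 357, 376 and 629 CPM in LKO mice (log2 fold change 0.44, SE 0.333, adjusted p = 0.33 from edgeR). The genotypes overlapped for both.

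The *Got1* window was the only one among the 35 enzymes with a match to TGATGCAA, in its reverse complement, and is shown for that, chr19:43524606-43524855 on the minus strand, with capitals as above.
Got1: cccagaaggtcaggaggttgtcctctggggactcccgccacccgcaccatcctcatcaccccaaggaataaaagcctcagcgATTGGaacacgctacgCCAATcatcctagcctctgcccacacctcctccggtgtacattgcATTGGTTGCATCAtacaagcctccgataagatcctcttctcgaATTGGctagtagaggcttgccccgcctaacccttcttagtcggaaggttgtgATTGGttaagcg
Directly before that match, without overlap, stands 1 of the 5 CCAAT matches of this window.

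A ratio of 2 genes within a mouse does not depend on how libraries are scaled, and 7 pairs of related enzymes were compared in this way, as the log2 ratio of their TPM. For *Bhmt* over *Bhmt2* it was 4.82, 5.20 and 4.83 in WT and 7.15, 7.22 and 6.54 in LKO mice. For *Got1* over *Got2* it was −0.80, −0.34 and −0.72 in WT and 1.28, 1.59 and 3.38 in LKO mice. In both pairs every LKO mouse was above every WT mouse, and *Got1* went from below *Got2* to above it. For *Prodh* over *Prodh2* it was −0.69, −1.13 and −0.32 in WT and 0.05, 0.87 and 0.48 in LKO mice, so that their order turned too. For *Agxt* over *Agxt2* it was −0.81, −0.35 and −0.20 in WT and 0.42, 0.10 and 0.35 in LKO mice, which turned as well. The mean differences of LKO minus WT were 2.02, 2.71, 1.18 and 0.74 (p = 0.1 in each by an exact two-sided permutation test, which is the lowest that 3 against 3 mice can reach, and 0.175 when adjusted over the 7 pairs). For the other pairs the genotypes overlapped. The difference was −0.66 for *Sds* over *Sdsl* (exact permutation test, p = 0.2, adjusted p = 0.233), −0.38 for *Bckdha* over *Bckdhb* (exact permutation test, p = 0.2, adjusted p = 0.233) and −0.28 for *Gpt* over *Gpt2* (exact permutation test, p = 0.9, adjusted p = 0.9).

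**Figure D3:**
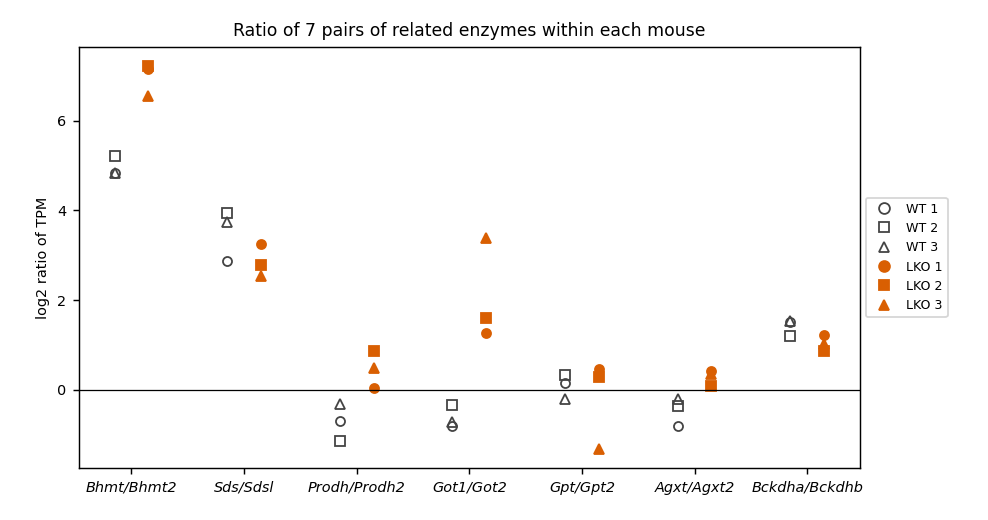
Log2 ratio of the TPM of 7 pairs of related enzymes within each WT mouse (open) and LKO mouse (filled). The genotypes do not overlap for Bhmt/Bhmt2, Prodh/Prodh2, Got1/Got2 and Agxt/Agxt2, and LKO mouse 3 stands apart from the other LKO mice at 3.38 for Got1/Got2 and −1.31 for Gpt/Gpt2.

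The enzymes varied unequally among the LKO mice. The largest ranges were 4.70-fold for *Acmsd*, 3.52-fold for *Got1* and 3.22-fold for *Tat*, and LKO mouse 3 was the highest mouse for all 3 genes. Of the 20 enzymes called higher, 13 had their highest value in LKO mouse 3, 4 in LKO mouse 2 and 3 in LKO mouse 1. *Bhmt* went the other way, with LKO mouse 3 the lowest of the LKO mice. Among WT mice the largest ranges were 2.69-fold for *Tat*, 2.46-fold for *Bhmt2* and 2.18-fold for *Gpt2*, with WT mouse 2 the lowest for each. Without LKO mouse 3, 21 enzymes were called higher and 3 lower, and without LKO mouse 1, 21 and 5.

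**Figure D4:**
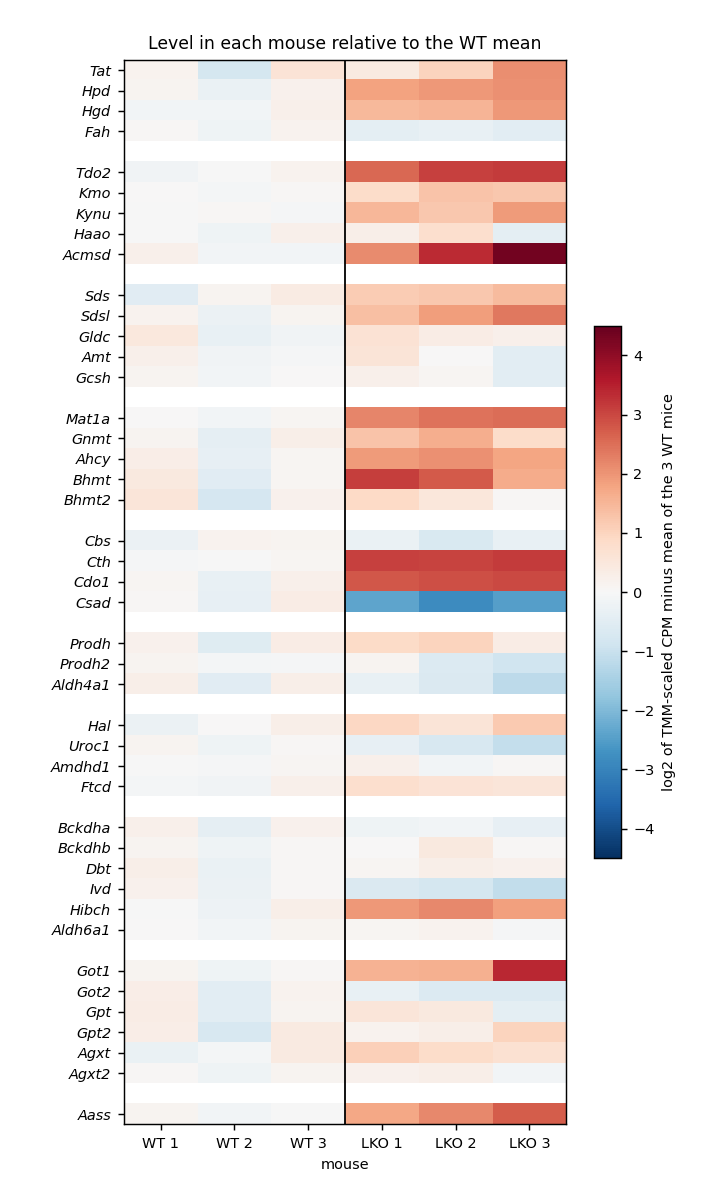
Level of each enzyme in each mouse (columns) as the log2 of TMM-scaled CPM minus the mean of the 3 WT mice; red is higher and blue is lower. LKO mouse 3 is the darkest column for Acmsd, Got1 and Tat, and Cth is even across the LKO mice.

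Together the 43 enzymes took 1.49 to 1.86% of the counts in WT, against 3.47 to 4.14% in LKO mice, and 1.03 to 1.26% of the TPM in WT and 1.46 to 1.81% in LKO mice. Neither share overlapped between genotypes. *Bhmt*, *Tdo2* and *Mat1a* weighed most in the TPM sums, with mean shares of 16.5%, 14.9% and 9.04% in WT mice. In LKO mice their mean shares were 23.9%, 27.3% and 11.2%. The sums therefore do not show that most of the 43 rose. On log2(TPM + 1), 6 of the 43 were called higher and 25 lower (limma). By mean TPM, the order in WT mice was led by *Bhmt*, *Tdo2*, *Mat1a*, *Gnmt* and *Hpd*, at 1959, 1729, 1053, 914 and 708 TPM, and closed by *Sdsl* and *Acmsd*, at 9.23 and 8.31 TPM. In LKO mice it was led by *Tdo2*, *Bhmt*, *Mat1a*, *Hpd* and *Cdo1*, at 4613, 4028, 1899.7, 936 and 829.6 TPM. *Tdo2* and *Bhmt*, neighbours at the head of both orders, overlapped over the mice of each genotype. *Acmsd* moved from place 43 to place 27, *Hibch* from 37 to 17 and *Got1* from 29 to 13. *Tdo2* made up 14.9% ± 2.73 in WT and 27.3% ± 5.76 in LKO mice of the summed TPM of the 43 (SD, n = 3), *Cth* 1.89% ± 0.325 in WT and 3.79% ± 0.311 in LKO mice, and *Csad* 2.97% ± 0.265 in WT and 0.121% ± 0.0278 in LKO mice. The *Tdo2*, *Cth* and *Csad* shares did not overlap between genotypes. The same held for most of the 43 shares, also for enzymes that did not pass the test, such as *Gcsh* and *Aldh6a1*.

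The direction of small changes depended on the scaling. When libraries were scaled by total counts and not by TMM, the median log2 fold change over all genes was −0.90, and 14 enzymes were called higher and 16 lower, where 6.27% and 51.4% of all genes were. The 14 were all among the 20 that were higher with TMM, namely *Hpd*, *Hgd*, *Tdo2*, *Kynu*, *Acmsd*, *Sdsl*, *Mat1a*, *Ahcy*, *Bhmt*, *Cth*, *Cdo1*, *Hibch*, *Got1* and *Aass*. *Csad*, *Ivd* and *Uroc1* were lower under both. *Ftcd* and *Agxt*, higher with TMM, had log2 fold changes of −0.22 and −0.01 with total counts, and on the TPM scales *Kmo*, *Kynu*, *Sds*, *Gnmt* and *Hal* had negative values as well. Going from TMM to total counts moves all genes by about the same amount. Values relative to the median of all genes therefore hardly depend on this choice and do not test it. Relative to that median, the median of the enzymes was 0.67 with TMM and 0.68 with total counts, and 34 of the 43 lay above it in both. With a correction for gene length, 21 enzymes were higher and 3 lower, with *Prodh* and *Fah* gained and *Uroc1* lost. In each of the 20 other settings tried, 8 enzymes were called in the same direction. *Tdo2*, *Acmsd*, *Mat1a*, *Cth*, *Cdo1* and *Hibch* were called higher, and *Csad* and *Ivd* lower. *Bhmt*, *Got1* and *Aass*, with larger changes than *Hibch*, stayed above 0 in all 20 but were called in 19, 18 and 18 of them.

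**Figure D5:**
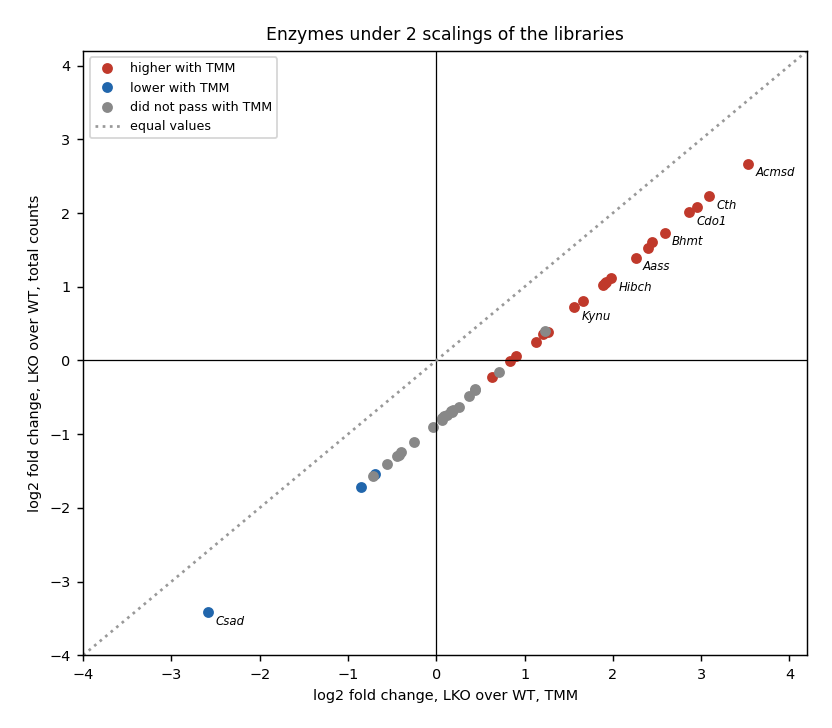
Log2 fold change of LKO over WT of the 43 enzymes with TMM (horizontal axis) and with total counts (vertical axis); colours give the call with TMM and the dotted line marks equal values. All points lie below the line, Acmsd, Cth and Cdo1 stay above 0 on both axes, Csad stays below 0 on both, and the grey points with TMM values between 0 and 0.71 fall below 0 with total counts.

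The enzymes were set beside 52 other enzymes of the same pathways, of which 49 were tested. Of these, 11 (22.4%) were higher and 12 (24.5%) lower in LKO mice, close to the 19.6% and 20.5% of all genes. Their median log2 fold change was −0.13 (*Tdh*, *Gadl1* and *Pycr1* had too few counts). With total counts, 6 were higher and 36 lower, where 6.27% and 51.4% of all genes were, with a median of −0.99. The largest rises were those of *Oat*, which links ornithine to proline and glutamate, *Hsd17b10* and *Mcee* of the branched-chain pathways, and *Aadat*, a transaminase of kynurenine and aminoadipate, with log2 fold changes of 2.20, 1.70, 1.67 and 1.66 (adjusted p = 7.3e-04, 4.4e-04, 3.5e-04 and 5.3e-04, edgeR). The largest falls were those of *Mtrr*, which reactivates methionine synthase, *Ethe1* of sulfide oxidation, the serine hydroxymethyltransferase *Shmt1* and *Chdh*, which makes the betaine precursor from choline, with −1.12, −1.06, −1.03 and −1.001 (adjusted p = 0.0024, 0.0024, 0.018 and 0.0017, edgeR). *Shmt1* passed in 3 of the 6 fits that left out a mouse, with an adjusted p of up to 0.072, without WT mouse 3 (edgeR). *Oat* was at 389, 211 and 344 CPM in the WT mice, against 1382, 1760.0 and 1201 CPM in LKO mice. *Chdh* was at 115, 98.0 and 127 CPM in the WT mice, against 61.4, 51.1 and 57.3 CPM in LKO mice. Neither gene overlapped between genotypes. By pathway with TMM, the tryptophan list had 2 higher and 2 lower of 7, the methionine list 1 higher and 2 lower of 6, the cysteine list 0 higher and 2 lower of 5, the phenylalanine and tyrosine list 2 higher and 3 lower of 5, the serine and glycine list 1 higher and 3 lower of 7, the proline list 1 higher and 0 lower of 2, the branched-chain list 4 higher and 0 lower of 14, and the lysine list 1 higher and 0 lower of 4. The lower genes of the tryptophan list were *Kyat1*, a kynurenine transaminase, and *Qprt*, which leads the kynurenine branch into NAD synthesis (log2 fold change −0.87 and −0.95, adjusted p = 0.0027 and 0.0036, edgeR).

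Of 9 regulators of fasting and hepatocyte genes, 3 were higher and 1 lower, where 19.6% and 20.5% of all genes were. With total counts, 0 were higher and 4 lower, where 6.27% and 51.4% of all genes were. *Ppargc1a*, a coactivator induced by glucagon in fasted liver, was at 8.62, 9.40 and 6.79 CPM in the WT mice, against 18.9, 18.0 and 109.8 CPM in LKO mice. LKO mouse 3, the mouse with the highest *Got1*, *Tat* and *Acmsd*, stood above the other LKO mice (log2 fold change 2.56, SE 0.672, adjusted p = 0.017 from edgeR). *Ppargc1a* passed in 3 of the 6 fits that left out a mouse, with an adjusted p of up to 0.061, without WT mouse 3, and had an adjusted p of 0.0535 with total counts (edgeR). Without LKO mouse 3 the log2 fold change of *Ppargc1a* was 1.16 (adjusted p = 0.0027, edgeR). The transcription factor genes *Cebpb* and *Cebpa* were also higher (1.46 and 0.60, adjusted p = 0.022 and 0.044, edgeR), but with total counts these were 0.62 and −0.23 and did not pass (adjusted p = 0.19 and 0.44, edgeR). *Ppara* was lower (−1.12, adjusted p = 0.0069, edgeR). The glucocorticoid receptor gene *Nr3c1*, *Klf15*, *Foxo1*, *Hnf4a* and the glucagon receptor gene *Gcgr* had log2 fold changes of −0.11, 0.41, 0.87, −0.30 and −0.21 and did not pass (adjusted p = 0.62, 0.31, 0.091, 0.42 and 0.45, edgeR).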

How the data were processed

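Liver RNA of 3 WT and 3 LKO mice was sequenced by the authors, 1 library per mouse. The authors deposited 1 table that holds unscaled read counts together with FPKM and TPM per gene and mouse, made with StringTie on mm10. The submitters' processing notes name HISAT2 2.1.0, Bowtie2 2.3.4.1 and StringTie 2.1.3b, with no order. The deposited FPKM are scaled by gene length and by fragments sequenced and entered only the relative gene length (read count over FPKM). The TPM deposited by the authors sum to about the same total in each mouse. The labels name a kit that selects mRNA and the methods a total RNA kit with rRNA removal, and the use of strand in counting is not given in the sources used here.

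As the study did, genes with more than 1 zero count were dropped. Counts were scaled by TMM and tested with edgeR 4.0.16 (quasi-likelihood, two-sided, genotype as the factor) in R 4.3.3, with Benjamini-Hochberg adjustment over 18636 genes and a threshold of 0.05. The SE is the log2 fold change over the root of the F statistic. The pair ratios were compared with exact permutation tests in scipy 1.17.1. Alternatives were edgeR's exactTest, DESeq2 1.42.0, other scalings and filters, the replicate number as a block, offsets for gene length (lowess, span 0.3), limma 3.58.1 on log2(TPM + 1) and log2(TPM + 0.1), and leaving out each mouse. On simulated counts for 18455 genes where 200 were shifted by 2 on the log2 scale, the quasi-likelihood test found 96.5% and called 6 unchanged genes. The simulated libraries shared a mean profile and lacked the composition difference of these data, so calls that depend on scaling were not tested by them.

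The members, lists and tests were chosen with earlier results of these data known. Coordinates and sequences are from RefSeq tables of GRCm38.p6, the assembly that mm10 represents; 36 of 39 windows were followed by bases found in a GENCODE transcript of the gene, on the stated strand. All enzymes were named; values in every mouse are given for those called with at least a 2-fold change, the highest by TPM in each group, and the pairs. Of the related enzymes and regulators, the 5 largest changes in each direction were named; *Tf* was not matched by symbol. *Dld*, *Kyat1*, *Qprt*, the other regulators, the enzymes not tested and the marker genes were named after their values were seen. 1 upstream sequence is not reported here. The labels do not tie the libraries to litters or batches.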

Additional observations from a re-analysis of the deposited data

How the results depend on the processing

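Counts of enzymes called were within 1.5 times their values in the report (23 called, 20 higher, 3 lower) under exactTest, DESeq2, DESeq2 size factors, upper-quartile factors, TMM factors from protein-coding genes, the other filters on low counts, the replicate block and the gene length offsets. The exceptions were total counts, with 16 lower and 42 related enzymes called, and limma on TPM. The log2(TPM + 1) scale gave 13775 genes, 6 enzymes higher and 25 lower, and 42 related enzymes; log2(TPM + 0.1) gave 14002 genes, 7 higher and 25 lower, and 42. In these, the median of all genes was −0.79 and −1.34, and the median of the enzymes minus that was −0.13 and 0.42. *Pak4* passed with total counts (log2 fold change −1.54), log2(TPM + 1) (−1.19) and log2(TPM + 0.1) (−2.14). The log2 fold changes that changed sign were −0.63 for *Haao*, −0.48 for *Gldc*, −0.76 for *Amt*, −0.40 for *Bhmt2*, −0.16 for *Prodh*, −0.78 for *Amdhd1*, −0.22 for *Ftcd*, −0.70 for *Bckdhb*, −0.69 for *Dbt*, −0.80 for *Aldh6a1*, −0.67 for *Gpt*, −0.39 for *Gpt2*, −0.00770 for *Agxt*, −0.74 for *Agxt2* with total counts; −0.36 for *Tat*, −0.43 for *Kmo*, −0.00975 for *Kynu*, −1.38 for *Haao*, −0.31 for *Sds*, −1.08 for *Gldc*, −1.35 for *Amt*, −0.29 for *Gnmt*, −1.03 for *Bhmt2*, −0.80 for *Prodh*, −0.64 for *Hal*, −1.45 for *Amdhd1*, −0.91 for *Ftcd*, −1.35 for *Bckdhb*, −1.30 for *Dbt*, −1.46 for *Aldh6a1*, −1.35 for *Gpt*, −1.08 for *Gpt2*, −0.67 for *Agxt*, −1.40 for *Agxt2* with log2(TPM + 1); −0.37 for *Tat*, −0.43 for *Kmo*, −0.0107 for *Kynu*, −1.39 for *Haao*, −0.31 for *Sds*, −1.14 for *Gldc*, −1.49 for *Amt*, −0.29 for *Gnmt*, −1.05 for *Bhmt2*, −0.82 for *Prodh*, −0.65 for *Hal*, −1.48 for *Amdhd1*, −0.92 for *Ftcd*, −1.39 for *Bckdhb*, −1.35 for *Dbt*, −1.47 for *Aldh6a1*, −1.37 for *Gpt*, −1.09 for *Gpt2*, −0.68 for *Agxt*, −1.43 for *Agxt2* with log2(TPM + 0.1); and for *Gcsh* 0.0516 with upper-quartile factors and 0.0283 with TMM factors from protein-coding genes.

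Leaving out each mouse in turn gave 5663 to 7309 genes called, 21 to 26 enzymes, 18 to 21 higher, 2 to 6 lower and 14 to 24 related enzymes. Lower enzymes numbered 6 without WT mouse 2 and 5 without LKO mouse 1; related enzymes numbered 15 without WT mouse 1 and 14 without WT mouse 3. The *Pak4* log2 fold change was −1.08 to −0.49 and passed without LKO mouse 3. Values near 0 that changed sign stayed within the ranges −0.0546 to 0.519 for *Haao*, −0.222 to 0.306 for *Amt*, −0.177 to 0.145 for *Gcsh*, −0.0318 to 0.146 for *Amdhd1*, −0.0264 to 0.117 for *Aldh6a1*, −0.0350 to 0.441 for *Gpt*. The *Gpt*/*Gpt2* difference ranged from −0.61 to 0.28. The replicate numbers did not pair the mice, with correlations of same-numbered deviations of 2.33e-04, −0.0390 and −0.0557; as a replicate block they gave 6431 genes and 24 enzymes called, 21 higher and 3 lower, and with gene length offsets 6239 genes and 22 enzymes, 20 higher and 2 lower. In the settings other than total counts and TPM, *Uroc1* did not pass with gene length offsets (with or without the replicate block), without WT mouse 1, without WT mouse 3 or without LKO mouse 2, *Ftcd* and *Agxt* did not pass without WT mouse 1 or WT mouse 2, and *Gnmt* did not pass with gene length offsets and the replicate block. *Tat* passed with exactTest, DESeq2, the replicate block (with or without gene length offsets) and without LKO mouse 1, and *Prodh* passed as higher under 8 of these settings, among them exactTest, DESeq2 and without LKO mouse 3. The cause of these changes was not tested. With 3 mice a group, p-values of the exact tests cannot go below 0.1.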
